A study of Mus musculus with 9 samples.

Results

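The 37 genes of the mouse mitochondrial genome were examined in RNA-seq of the main olfactory epithelium, the sheet of the nose that holds the olfactory sensory neurons. Members were all genes whose symbol starts with mt-, which gave 37 of the 55291 deposited genes, namely 13 messenger RNAs, 2 ribosomal RNAs and 22 transfer RNAs. The study compared 3 wild-type mice (C57BL/6), 3 Ms4a6c knockout mice (C57BL/6; Ms4a6c-/-, made by homologous recombination) and 3 Ms4a cluster knockout mice (C57BL/6; Ms4a cluster-/-, made with CRISPR/Cas9), all between 8 and 12 weeks of age, with wild-type littermates as controls and 1 library per mouse. Both deletions are carried by every cell. Ms4a genes encode membrane proteins studied as odorant receptors. The targeted genes matched the labels, since Ms4a6c had 54.0, 90.3 and 81.5 expected counts in the wild-type mice, 0 to 2.35 in the Ms4a6c knockout mice and 0 in the cluster knockout mice, and the 21 Ms4a genes together had 0 counts in each cluster knockout mouse.

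Mitochondrial DNA is a small circle that is copied and read apart from the nuclear chromosomes, by proteins that nuclear genes encode. Both strands are transcribed into long precursors, which are cut at the transfer RNAs that lie between the other genes, and most of the released messenger RNAs and, to a lesser degree, the ribosomal RNAs receive short poly-A tails. The 13 proteins are core subunits of complexes I, III, IV and V of oxidative phosphorylation (OXPHOS), whose other subunits are encoded in the nucleus, and the 2 ribosomal RNAs build the mitochondrial ribosome. Olfactory sensory neurons spend much energy on keeping ion gradients across the membrane of their cilia.

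Part of this genome has also been copied into nuclear chromosomes, and these copies bear on how reads were divided. In a comparison of GENCODE transcripts (GRCm38), 17 nuclear pseudogenes matched a mitochondrial gene over at least 100 bases with at least 90% identity. The 7 copies on chromosome 1 lie in 1 stretch, chr1:24611535-24616197 on the minus strand, and 5 of them were identical to the mitochondrial gene over the whole match. The sequences are shown because a read from such a stretch cannot be placed by its letters. The first 60 bases of mt-Nd3, a complex I subunit (chrM:9459-9518, plus strand), and of its copy Gm28438 (chr1:24613060-24613119, minus strand) differ at the 1 base in capitals, which is also the only mismatch over 345 matched bases.
mt-Nd3: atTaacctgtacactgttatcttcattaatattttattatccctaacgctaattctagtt
Gm28438: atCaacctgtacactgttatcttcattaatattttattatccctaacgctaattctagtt
The first 60 bases of mt-Nd4l, another complex I subunit (chrM:9877-9936, plus strand), and of its copy Gm10222 (chr1:24612641-24612700, minus strand) do not differ, nor do the rest of the 294 matched bases.
mt-Nd4l: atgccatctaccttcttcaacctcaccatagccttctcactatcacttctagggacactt
Gm10222: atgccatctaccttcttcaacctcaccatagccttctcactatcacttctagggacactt
A copy on another chromosome is less alike. Gm13340 on chromosome 2 has 37 mismatches to mt-Co1, the catalytic subunit of complex IV, over 1545 bases, of which 4, in capitals, fall in bases 460 to 519 (chrM:5787-5846, plus strand, and chr2:22589129-22589188, minus strand).
mt-Co1: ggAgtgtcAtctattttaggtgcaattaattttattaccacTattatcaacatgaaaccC
Gm13340: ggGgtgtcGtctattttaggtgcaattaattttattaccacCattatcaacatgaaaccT

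Libraries held 13954591 to 21987174 expected counts, and 2 of them stood apart. The 16 measured genes of a nasal gland list (secreted proteins of the glands beneath the epithelium) took 24.1% of all counts in wild-type mouse 1 and 25.01% in cluster knockout mouse 2, against 0.687% to 4.32% in the other 7 mice. All 12 markers of mature olfactory sensory neurons were detected in every library, with Omp, the olfactory marker protein, between 2988 and 6287 CPM (counts per 1e6) of nuclear counts, but the summed neuron list stood at 10335 and 9439 in the 2 gland-rich libraries against 17298 to 19204 in the others. The summed list of sustentacular cells, the supporting cells of the epithelium, stood at 12133 and 11806 against 20496 to 23759. The gland-rich libraries belong to different genotypes. The neuron and sustentacular sums are relative to nuclear counts that include the gland list, at 254059 and 264202 CPM in the gland-rich libraries. A large gland part by itself lowers such sums. In bulk tissue, this dilution, fewer cells of a type and less RNA per cell cannot be told apart.

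The mitochondrial genes took 4.35%, 6.22% and 6.29% of all counts in the wild-type mice. They took 6.20%, 5.93% and 5.97% in the Ms4a6c knockout mice and 5.76%, 4.63% and 6.21% in the cluster knockout mice. The 2 lowest values were those of the gland-rich libraries, and the other 7 mice lay between 5.76% and 6.29%. The 95% Wilson intervals of the shares were at most 0.0249 percentage points wide, and these intervals cover counting error only, so the spread between mice was many times the counting error.

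**Figure D1:**
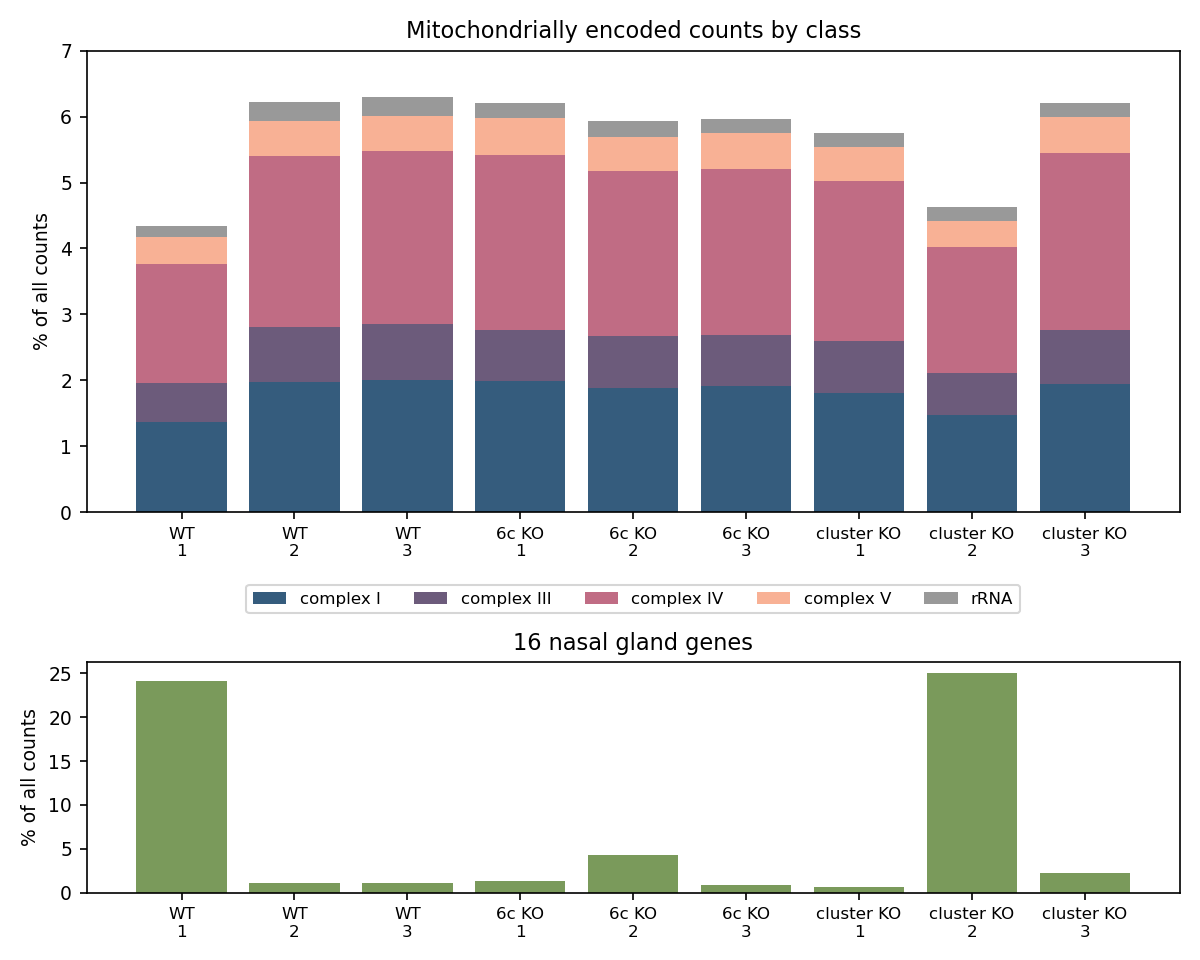
The upper panel stacks the share of all counts (%) taken by mitochondrial messenger RNAs of each complex and by ribosomal RNA in each mouse, and the lower panel shows the share of the 16 nasal gland genes. WT is wild type, 6c KO is Ms4a6c knockout and cluster KO is Ms4a cluster knockout; the 2 mice with 24.1% and 25.01% gland counts have the lowest bars, at 4.35% and 4.63%.

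Mean shares were 5.62% ± 1.10 (SD, n = 3) in wild-type, 6.04% ± 0.148 (n = 3) in Ms4a6c knockout and 5.53% ± 0.814 (n = 3) in cluster knockout mice. The differences between genotypes were within the spread between mice (2-sided exact permutation test, p = 1 for Ms4a6c knockout and p = 0.8 for cluster knockout against wild type, and p = 0.5 between the knockouts), and the smallest p that 3 against 3 mice allow is 0.1. The difference of Ms4a6c knockout from wild type, 0.42 percentage points, became -0.22 without wild-type mouse 1 (exact p = 0.2), 0.717 without wild-type mouse 2 and 0.755 without wild-type mouse 3. The difference of the cluster knockout from wild type, -0.086 points, became 0.37 without cluster knockout mouse 2, 0.21 without wild-type mouse 2, 0.25 without wild-type mouse 3 and -0.72 without wild-type mouse 1 (exact p = 0.2 to 1). The difference between the knockouts, -0.50 points, became -0.0525 without cluster knockout mouse 2 and -0.842 without cluster knockout mouse 3 (exact p = 0.1). Without both gland-rich libraries the differences from wild type were -0.27 points for the cluster knockout (exact p = 0.333) and -0.22 points for the Ms4a6c knockout (exact p = 0.2), and that between the knockouts was -0.0525 points (exact p = 1).

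When the gland genes were left out of the denominator, the shares ran from 5.73% to 6.36% over all 9 mice. Wild-type mouse 1 stood at 5.73%, just below the lowest of the other 7 (5.80%), and cluster knockout mouse 2 at 6.17% fell within them. On the scale of the gene-wise test, CPM after scaling by the trimmed mean of M values (TMM), the order turned. The 37 genes summed to 61918 CPM in wild-type mouse 1 and 65728 in cluster knockout mouse 2, above the 51154 to 56575 of the other 7 mice. Of the 15 messenger and ribosomal RNAs, 10 were higher in wild-type mouse 1 and 13 in cluster knockout mouse 2 than in any of those 7. In summed TMM-scaled CPM the Ms4a6c knockout differed from wild type by -3524 (exact permutation test, p = 0.1), the cluster knockout differed from wild type by -486 (exact p = 1), and the cluster knockout was above the Ms4a6c knockout by 3038 (exact p = 0.7), so the first and the last had the opposite sign to the shares. A direction for gland-rich tissue therefore depends on the scale, and none is drawn from it.

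As shares of all counts, gland counts included, the nuclear genes for the same complexes were also lowest in the gland-rich libraries. The 87 nuclear OXPHOS genes took 0.630% of counts in wild-type mouse 1 and 0.658% in cluster knockout mouse 2, against 0.915% to 1.002% in the other 7 mice. Relative to the median of those 7, wild-type mouse 1 had 0.643 times the nuclear OXPHOS share and 0.700 times the mitochondrial share, and cluster knockout mouse 2 had 0.671 and 0.746 times. The neuron list stood at 0.558 and 0.509 times its median in the same mice. With gland genes left out of the denominator, the mitochondrial share stood at 0.912 times its median in wild-type mouse 1 and 0.982 times in cluster knockout mouse 2. Such ratios are not given for the nuclear OXPHOS genes and the neuron list. There were 5.74 to 7.04 mitochondrial counts for each nuclear OXPHOS count, and the 2 highest ratios, 6.89 and 7.04, were those of the gland-rich libraries. The part of gland and neuron content in these values was not tested.

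**Figure D2:**
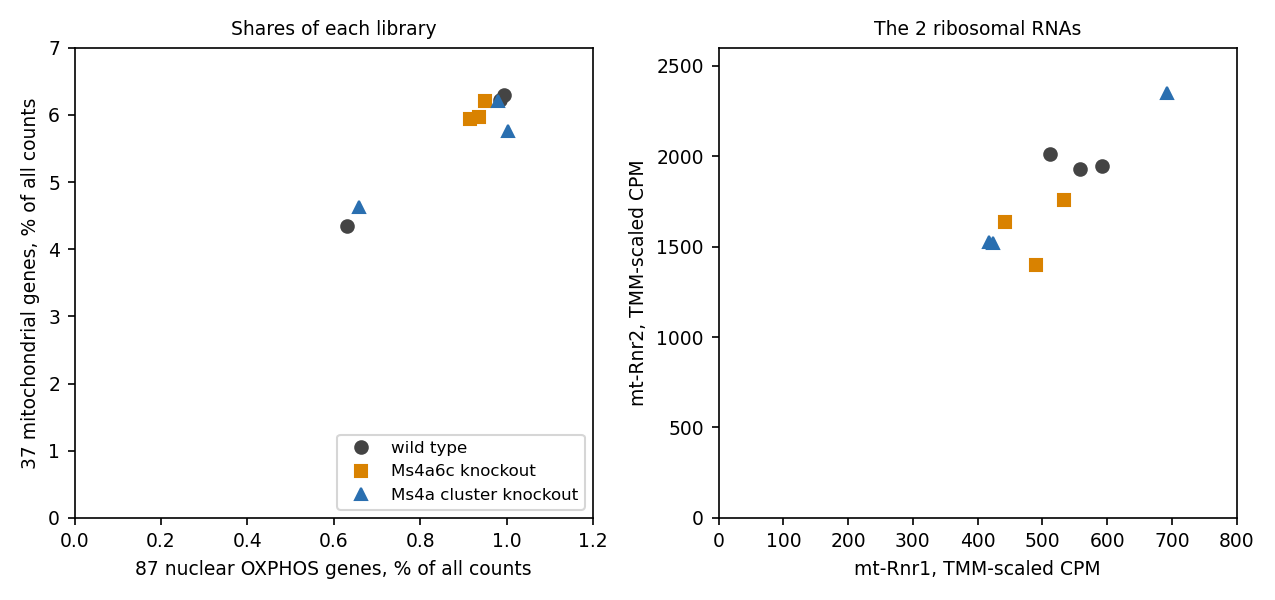
The left panel plots the share of all counts (%) of the 37 mitochondrial genes against that of 87 nuclear OXPHOS genes, and the right panel plots mt-Rnr2 against mt-Rnr1 (TMM-scaled CPM), with 1 point per mouse. The 2 gland-rich mice lie apart at the lower left of the left panel, and cluster knockout mouse 2 has the highest value of both ribosomal RNAs.

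Across the other 7 mice, no uncentred relation of the mitochondrial share to a marker list passed the test, among 4 computed. For the gland list Pearson's r was -0.095 (permutation p = 0.86) and Spearman's rho 0.18 (p = 0.71), and r became 0.85 without the 2 mice farthest from the median, Ms4a6c knockout mouse 2 and cluster knockout mouse 3. For the mature neuron list r was -0.51 (permutation p = 0.26) and rho -0.25 (p = 0.59), for sustentacular cells r was -0.11 (p = 0.82) and rho -0.071 (p = 0.91), and for nuclear OXPHOS genes r was 0.27 (p = 0.54) and rho 0.46 (p = 0.30). Without the 2 farthest mice these r were 0.0025, -0.20 and -0.33. For the neuron list those 2 were cluster knockout mice 1 and 3, with mitochondrial shares of 5.76% and 6.21%. Their neuron sums, 19204 and 17298 CPM of nuclear counts, were the highest and the lowest of the 7 mice. The Benjamini-Hochberg adjusted permutation p was 0.86 for each r and 0.91 for each rho. With both measures centred on their genotype means, the neuron list had r = -0.87 (permutation p = 0.012, adjusted p = 0.049 over 4 lists). The other lists then had r of 0.082 to 0.57 (adjusted permutation p = 0.38 to 0.87). Centring leaves fewer free values than mice, which that permutation does not count. Its p therefore cannot decide, and no relation is drawn from it. All 9 mice fall into 2 clusters of gland content, so no r over all of them is given.

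Within the mitochondrial counts the balance among complexes varied little. Complex IV (mt-Co1, mt-Co2 and mt-Co3) took 41.4% to 43.2%, complex I (7 mt-Nd genes) 31.2% to 32.2%, complex III (mt-Cytb) 12.6% to 13.6%, complex V (mt-Atp6 and mt-Atp8) 8.42% to 9.30% and ribosomal RNA 3.43% to 4.63%. These are shares of counts, not of molecules, and long genes give more counts. The low share of ribosomal RNA was measured in poly-A selected libraries.

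Complex IV was the class whose groups separated. It took 41.4%, 41.8% and 41.6% of the mitochondrial counts in the wild-type mice and 42.7%, 42.1% and 42.2% in the Ms4a6c knockout mice. Those groups did not overlap, and the difference of 0.72 percentage points reached the smallest p of the design (exact permutation test, p = 0.1, adjusted p = 0.72 over 18 tests of 6 classes in 3 comparisons). With counts divided by gene length the difference was 0.0415 points (exact p = 1). With nuclear copies added, the shares were 42.8%, 42.7% and 42.9% in the wild-type mice. They were 43.8%, 43.1% and 43.7% in the Ms4a6c knockout mice, again without overlap. In counts without copies, the cluster knockout mice had 42.3%, 41.5% and 43.2% and overlapped both other groups.

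Ribosomal RNA took 4.10%, 4.46% and 4.41% of the mitochondrial counts in the wild-type mice, 3.72%, 4.13% and 3.56% in the Ms4a6c knockout mice and 3.80%, 4.63% and 3.43% in the cluster knockout mice. The Ms4a6c knockout mean was 0.52 points below wild type (exact permutation test, p = 0.2, adjusted p = 0.72), with 1 knockout mouse inside the wild-type range. The cluster knockout mean was 0.37 points below wild type (exact p = 0.4, adjusted p = 0.72), and the mouse above all wild types was the gland-rich one. In the other classes the groups overlapped, with adjusted p from 0.72 to 0.953.

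Compared per kilobase of gene, mt-Co1 (chrM:5328-6872) had the highest level, at 9426 ± 609 TMM-scaled CPM per kb (SD, n = 9), above the next gene in 9 of 9 mice. mt-Cytb, the core of complex III (chrM:14145-15288), followed at 6630 ± 615, then mt-Co3 at 6516 ± 601, mt-Co2 at 6278 ± 493 and mt-Atp6, the proton channel subunit of complex V, at 6265 ± 510. The order among these 4 was not firm, since mt-Cytb was above mt-Co3 in 5 mice, mt-Co3 above mt-Co2 in 6 and mt-Co2 above mt-Atp6 in 7 of 9. A second step held mt-Nd4 (4188 ± 346), mt-Nd1 (4098 ± 346) and mt-Atp8 (3769 ± 345). The other complex I genes lay below, with mt-Nd2 at 2580 ± 280, mt-Nd5 at 2253 ± 174 and mt-Nd6 at 2023 ± 168, each above its successor in 9 of 9 mice. mt-Nd6 (chrM:13552-14070) is the only protein gene on the minus strand, and its level per kb was 0.899 ± 0.0495 times (SD, n = 9) that of mt-Nd5, with which it overlaps by 14 bases. The counting is not stated to use strand, so reads of the opposite strand cannot be set aside there.

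**Figure D3:**
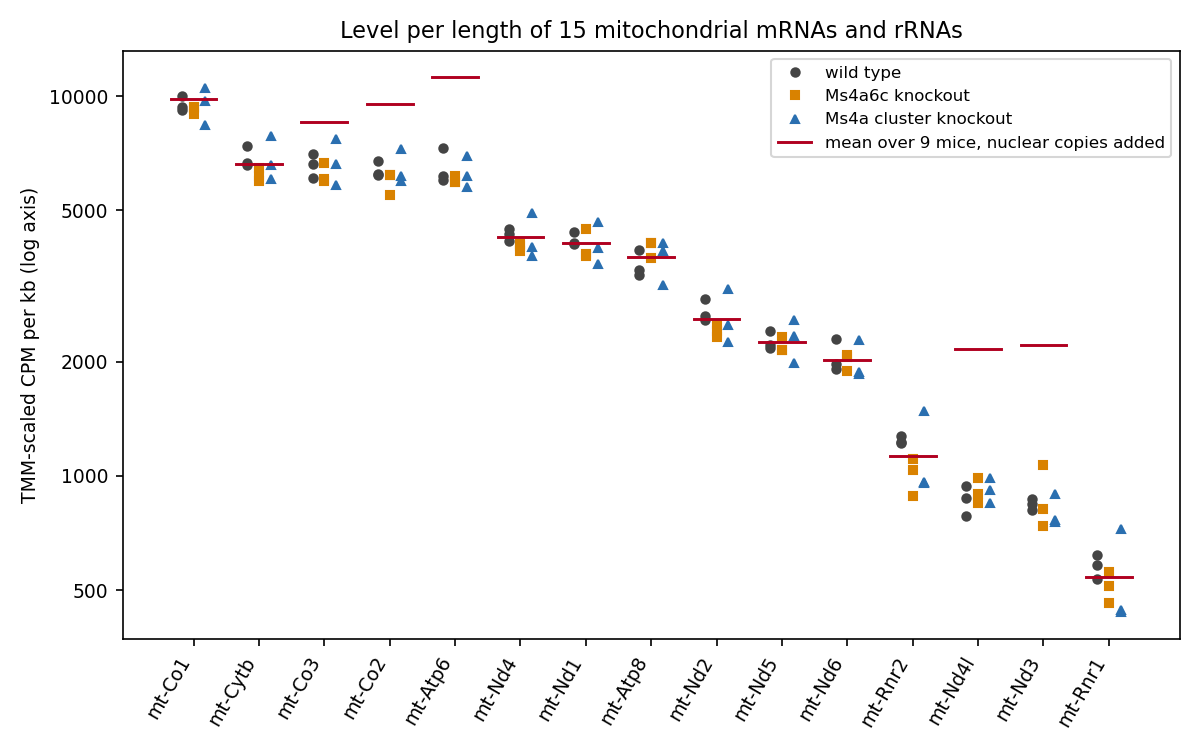
Each point is 1 mouse and shows TMM-scaled CPM per kb of gene on a log axis, with genes ordered by their mean; the horizontal line is the mean over 9 mice after the counts of the nuclear copies were added. mt-Co1 is highest at 9426 on average and mt-Rnr1 lowest at 542, and the lines leave the points for mt-Co3, mt-Co2, mt-Atp6, mt-Nd4l and mt-Nd3.

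The lowest levels per kb belonged to mt-Rnr2, the large ribosomal RNA (chrM:1094-2675, 1129 ± 191), mt-Nd4l (897 ± 67.8), mt-Nd3 (841 ± 100) and mt-Rnr1, the small ribosomal RNA (chrM:70-1024, 542 ± 92.9). Counts were divided by the full gene length, with no correction for inserts of about 300 bases. mt-Atp8 (204 bases), mt-Nd4l (297) and mt-Nd3 (348) are shorter than or close to that, and its part in their places in the order was not tested. mt-Rnr2 was 2.09 ± 0.187 times mt-Rnr1 (SD, n = 9), and mt-Co1 was 8.51 ± 1.13 times mt-Rnr2.

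Genes that share a messenger RNA differed in counts per kb, which is not a difference in the amount of that RNA. mt-Atp8 and mt-Atp6 are translated from 1 messenger RNA on which their frames overlap by 43 bases, shown in capitals with 20 bases on each side (chrM:7907-7989, plus strand).
mt-Atp8 and mt-Atp6: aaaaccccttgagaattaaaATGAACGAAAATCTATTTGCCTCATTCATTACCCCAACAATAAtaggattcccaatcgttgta
The stretch starts with the ATG of mt-Atp6. Per kb, mt-Atp8 had 0.604 ± 0.0595 times the counts of mt-Atp6 (SD, n = 9), and 0.338 ± 0.0372 times once the nuclear copies of mt-Atp6 were added. mt-Nd4l shares its messenger RNA with mt-Nd4 and overlaps it by 7 bases, shown likewise (chrM:10147-10193, plus strand).
mt-Nd4l and mt-Nd4: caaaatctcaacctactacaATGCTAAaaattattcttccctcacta
Per kb, mt-Nd4l had 0.215 ± 0.020 times the counts of mt-Nd4, and 0.507 ± 0.0231 times with the copies added. Both ratios were described by genotype after their values were seen, with no test. With copies added, mt-Atp8 to mt-Atp6 was 0.321, 0.310 and 0.304 in the wild-type mice, 0.370, 0.352 and 0.403 in the Ms4a6c knockout mice and 0.314, 0.298 and 0.373 in the cluster knockout mice. With copies added, mt-Nd4l to mt-Nd4 was 0.4802, 0.487 and 0.4796 in the wild-type mice, 0.525, 0.5097 and 0.532 in the Ms4a6c knockout mice and 0.4997, 0.501 and 0.544 in the cluster knockout mice. With copies added, the Ms4a6c knockout mice lay above all wild-type mice in both ratios, and the cluster knockout mice did so in the second. Without copies, mt-Atp8 to mt-Atp6 was 0.541 to 0.578 in the wild-type, 0.629 to 0.692 in the Ms4a6c knockout and 0.552 to 0.667 in the cluster knockout mice, and mt-Nd4l to mt-Nd4 was 0.180 to 0.2099, 0.2103 to 0.252 and 0.2002 to 0.2299. The cluster knockout then overlapped wild type in both, and the Ms4a6c knockout stood barely clear of it in the second. How often ratios of other gene pairs separate the groups was not computed. Inserts were about 300 bases long, more than the 204 bases of mt-Atp8 and the 297 of mt-Nd4l, and what part of the differences comes from this was not tested.

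The nuclear copies held 0.642% to 1.06% of all counts, and 99.4% of these were on the chromosome 1 stretch. Gm28438 took 53.9% to 65.5% of the counts of mt-Nd3 and its copy together, and Gm10222 took 53.4% to 63.1% of those of mt-Nd4l. The copies of mt-Atp6, nearly all on Gm10925, took 40.6% to 47.4%, those of mt-Co2, mainly Gm28661, 32.2% to 36.1%, and Gm28437 21.1% to 27.8% of the mt-Co3 sum. For mt-Co1 the copies, mainly Gm29216, took 3.28% to 5.33%, and for mt-Nd4 Gm28439 took 1.36% to 1.84%. The copies of mt-Nd2, mt-Nd5, mt-Nd6 and mt-Cytb took at most 0.0625%. Gm13340 with its 37 mismatches had 376 to 910 counts, Gm13341, a copy of mt-Co2 with 16 mismatches, 119 to 309, and Gm13339, a copy of mt-Nd2 with 17, 9.14 to 39.8. Gm11410, a copy of mt-Cytb with 81 mismatches, had 2 to 19 counts and Gm11407, a copy of mt-Nd5 with 78, had 1 to 12.

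**Figure D4:**
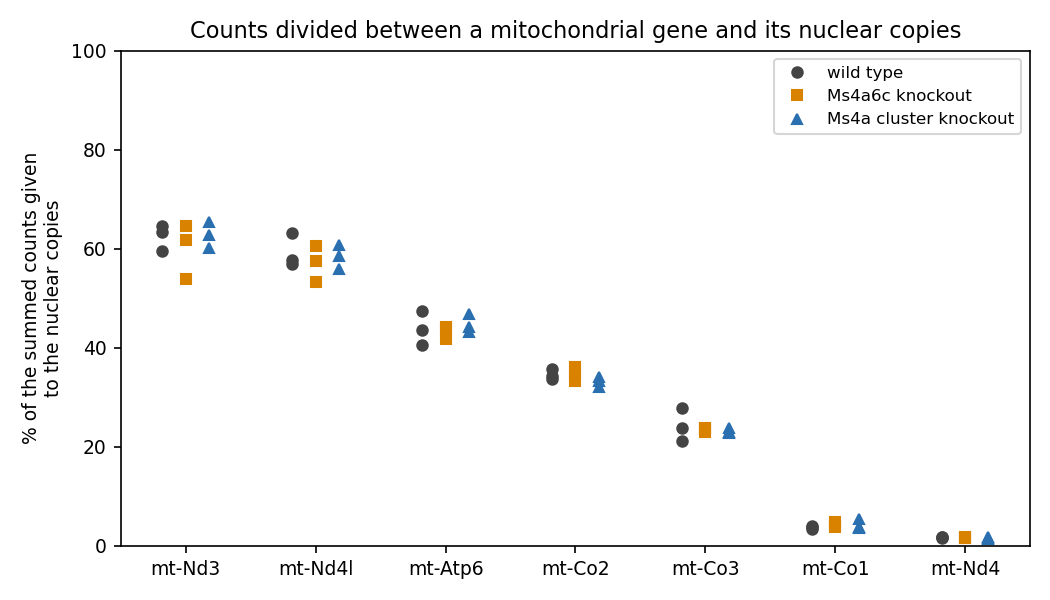
The percent of the summed counts of a mitochondrial gene and its nuclear copies that was given to the copies, with 1 point per mouse for 7 genes. The percent is above 50% in every mouse for mt-Nd3 and mt-Nd4l and below 2% for mt-Nd4.

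With copies added, the order of levels per kb changed. mt-Atp6 stood first at 11193 ± 961 TMM-scaled CPM per kb (SD, n = 9), above mt-Co1 (9821 ± 595), mt-Co2 (9534 ± 701), mt-Co3 (8527 ± 730) and mt-Cytb (6630 ± 615), each above its successor in 9 of 9 mice. mt-Nd3 stood at 2207 ± 225 and mt-Nd4l at 2153 ± 156, next to mt-Nd5. The files do not show which of these counts came from mitochondrial RNA, so levels of genes with chromosome 1 copies are uncertain between the values with and without the copies.

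The share of mt-Nd3 within the mitochondrial counts varied most among the 15 genes, with a coefficient of variation of 14.3% over 9 mice. It was 0.473%, 0.535% and 0.501% in the wild-type mice, 0.510%, 0.464% and 0.701% in the Ms4a6c knockout mice and 0.520%, 0.476% and 0.466% in the cluster knockout mice. Ms4a6c knockout mouse 3 stood above all others and had the lowest percent given to Gm28438, 53.9%. With the copy added, the coefficient was 6.79%. The 2 ribosomal RNAs (11.1% and 11.2%) and mt-Atp8 (9.93%) came next, and mt-Co1 varied least, at 2.33%.

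Transfer RNAs were hardly measured. The 22 genes are 59 to 75 bases long, shorter than the insert, and together had 0 to 7 counts in a mouse and 32 over all 9 mice. In 16 of the 22, all 9 mice had 0 counts. A count of 0 allows up to 3 counts, or 0.136 to 0.215 CPM by library, for counting error only. Counts fell on mt-Ts1 (19 counts over 7 mice, the serine transfer RNA for UCN codons), mt-Te (9 over 6 mice, for glutamate) and, with 1 count each, mt-Tl1, mt-Tp, mt-Tw and mt-Ty. Of the 32 counts, 30 were on the 8 transfer RNA genes of the minus strand. mt-Ts1, the only one tested for genotype, overlaps the end of mt-Co1 by position, and its log2 fold changes of -0.085 to 0.029 carried standard errors of at least 1.02.

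No mitochondrial gene passed the test between genotypes. Of 16 tested (13 messenger RNAs, 2 ribosomal RNAs and mt-Ts1), 0 passed an adjusted p of 0.05 in edgeR's quasi-likelihood test in any comparison, 0 had an unadjusted p below 0.05, and DESeq2 called 0. Over all 23225 tested genes, 0.0258% were called in the cluster knockout against wild type, 0.435% in the Ms4a6c knockout against wild type and 0.443% between the knockouts, and 4.93%, 10.5% and 9.38% had an unadjusted p below 0.05. The 3 comparisons share their groups in pairs.

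Estimates for the 15 messenger and ribosomal RNAs were small, and each 95% interval included 0. For the cluster knockout against wild type, log2 fold changes ran from -0.13 to 0.086 with a median of -0.029 (0.0072 over all tested genes), and the 95% intervals together spanned folds of 0.702 to 1.25. For the Ms4a6c knockout against wild type they ran from -0.30 to 0.14 with a median of -0.083 (-0.0016 over all genes), within folds of 0.625 to 1.31. Between the knockouts they ran from -0.12 to 0.17 with a median of 0.065 (0.0070 over all genes), within folds of 0.760 to 1.46. These medians rest in part on the gland-rich libraries. Without both they were -0.054, -0.020 and -0.040 in the same order, with 2, 5 and 2 of 15 estimates above 0 against 6, 3 and 12 with them. Without wild-type mouse 1 alone, the cluster knockout against wild type had a median of 0.041 and the Ms4a6c knockout one of -0.022. For the cluster knockout against wild type the median was 0.051 without cluster knockout mouse 1, 0.0029 without cluster knockout mouse 3 and -0.12 without cluster knockout mouse 2. Between the knockouts it was 0.16 without cluster knockout mouse 1 and -0.038 without cluster knockout mouse 2. A larger change than these bounds in a mean is outside the intervals. Changes within them, down to a fold of 0.625 or up to 1.46 by comparison, remain possible.

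**Figure D5:**
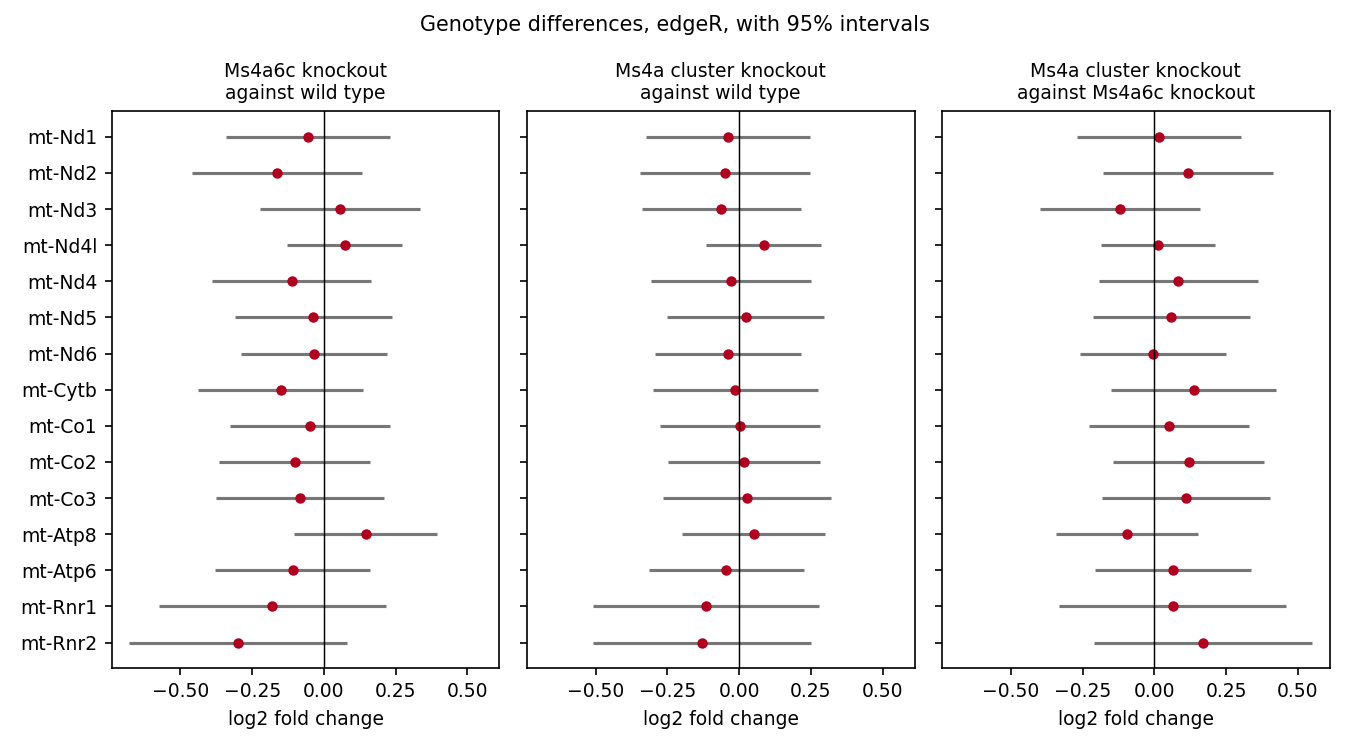
Points are log2 fold changes from edgeR for 15 mitochondrial genes in the 3 genotype comparisons, and lines are 95% intervals from the fit of all 9 mice. Every interval includes 0, and mt-Rnr2 in the Ms4a6c knockout lies lowest, at -0.30.

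The ribosomal RNAs had the lowest estimates in both knockouts. mt-Rnr2 was at 1947, 2013 and 1930 TMM-scaled CPM in the wild-type mice, 1637, 1756 and 1397 in the Ms4a6c knockout mice and 1524, 2349 and 1518 in the cluster knockout mice. All Ms4a6c knockout mice were below all wild-type mice, while the cluster knockout mice lay on both sides of them. The log2 fold change was -0.30 ± 0.17 (SE) for the Ms4a6c knockout (edgeR, adjusted p = 0.57, unadjusted p = 0.11, and unadjusted p = 0.046 in DESeq2) and -0.13 ± 0.17 for the cluster knockout (adjusted p = 0.999). mt-Rnr1 was at 592, 511 and 558 CPM in the wild-type mice, 442, 534 and 490 in the Ms4a6c knockout mice and 418, 692 and 424 in the cluster knockout mice, with overlapping groups. Its log2 fold changes were -0.18 ± 0.18 and -0.12 ± 0.18.

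Cluster knockout mouse 2, which is gland-rich, held the highest value of both ribosomal RNAs. Without it, the cluster knockout mice against wild type had log2 fold changes of -0.40 for mt-Rnr1 (edgeR, unadjusted p = 0.0024, adjusted p = 0.65) and -0.37 for mt-Rnr2 (unadjusted p = 0.0053, adjusted p = 0.71). Without both gland-rich libraries they were -0.35 (adjusted p = 0.37) and -0.37 (adjusted p = 0.35), and mt-Rnr2 in the Ms4a6c knockout was at -0.30 (unadjusted p = 0.0052, adjusted p = 0.12). None of these passed the adjusted threshold. Leaving out the highest cluster knockout value by itself lowers that group's mean. Without cluster knockout mouse 1 or mouse 3 instead, the lowest unadjusted edgeR p of the 15 genes against wild type was 0.158 and 0.444.

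In the Ms4a6c knockout against wild type, groups did not overlap for 4 of the 16 tested mitochondrial genes in TMM-scaled CPM, against 18.3% of all tested genes. These were mt-Rnr2, mt-Cytb, mt-Nd2 and mt-Nd4, each lower in the knockout mice. mt-Cytb was at 8434, 7536 and 7634 CPM in the wild-type mice and 7032, 7399 and 6837 in the Ms4a6c knockout mice, which gave -0.15 ± 0.13 (SE) in log2 fold change (edgeR, adjusted p = 0.73). mt-Nd2 was at 3037, 2729 and 2663 CPM against 2608, 2505 and 2408, which gave -0.16 ± 0.13 in log2 fold change (adjusted p = 0.71). mt-Nd4 was at 6163, 5738 and 5975 CPM against 5545, 5611 and 5381.

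Relative to the mitochondrial total, groups did not overlap for 3 of 16 genes in that comparison, against 20.7% of all genes. mt-Co1 took 25.03%, 25.03% and 25.66% of the mitochondrial counts in the wild-type mice and 25.83%, 25.95% and 26.17% in the Ms4a6c knockout mice. mt-Atp8 took 1.296%, 1.22% and 1.26% against 1.50%, 1.38% and 1.58%, and mt-Nd2 took 4.91%, 4.82% and 4.72% against 4.66%, 4.52% and 4.54%. With the mitochondrial total as library size, mt-Atp8 had a log2 fold change of 0.24 (edgeR, adjusted p = 0.71). Such counts, 4 and 3 of 16, are near the share of all genes and are no result about the mitochondrial genes.

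The cluster knockout against wild type had 0 of 16 such genes on either scale, against 9.86% and 5.86% of all genes, and the knockouts against each other had 0 of 16, against 16% and 11.2%. In the cluster knockout, for example, mt-Co1 was at 12973, 16240 and 15000 CPM, around the 15500, 14159 and 14484 of the wild-type mice, a log2 fold change of 0.0023 ± 0.13 (edgeR, adjusted p = 1).

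Nuclear genes of the same pathways were also without calls. Of 85 tested nuclear OXPHOS genes, 0 rose and 0 fell in each of the 3 comparisons in edgeR at an adjusted p of 0.05, while 2, 11 and 20 had an unadjusted p below 0.05 in the cluster knockout against wild type, the Ms4a6c knockout against wild type and the knockouts against each other, against 4.93%, 10.5% and 9.38% of all tested genes. Between the knockouts the 20 of 85 were above the share of all genes, and no set test was run. Their median log2 fold changes in the 3 comparisons were 0.017, -0.077 and 0.095, with 55, 13 and 78 of 85 above 0, against 12012, 11539 and 11947 of all 23225 genes. These medians and counts are on the TMM scale with the gland-rich libraries included, and are not given without them.

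The nuclear gene nearest to a call was Uqcrh, the hinge subunit of complex III. It was at 157, 155 and 156 TMM-scaled CPM in the wild-type mice, 151, 144 and 145 in the Ms4a6c knockout mice and 167, 170 and 167 in the cluster knockout mice, and no groups overlapped. Between the knockouts its log2 fold change was 0.20 ± 0.048 (edgeR, adjusted p = 0.18), and DESeq2 called it. Cox6a2, the muscle form of a complex IV subunit, had the largest log2 fold change, 3.19 ± 1.82 between the knockouts (adjusted p = 0.63), from 5.96 CPM in cluster knockout mouse 3 against 0 to 1.50 in the other mice. That mouse also had 387 CPM of nuclear counts in the 6 skeletal muscle genes, against 0.577 to 43.9 in the others, and their part in the value was not tested.

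Genes that copy and transcribe mitochondrial DNA or mature its RNA gave 0 calls among 33 tested in each comparison in edgeR and DESeq2, with 3, 3 and 1 at an unadjusted edgeR p below 0.05, against 4.93%, 10.5% and 9.38% of all tested genes. Tfam, which packages mitochondrial DNA and starts its transcription, had log2 fold changes of -0.043 ± 0.072 in the cluster knockout and -0.023 ± 0.071 in the Ms4a6c knockout against wild type. Polrmt, the mitochondrial RNA polymerase, had 0.097 ± 0.12 and 0.18 ± 0.12, Tfb2m, its initiation factor, -0.00053 ± 0.094 and 0.046 ± 0.094, and Tefm, its elongation factor, 0.15 ± 0.17 and 0.094 ± 0.17. The helicase gene Twnk had 0.10 ± 0.15 and 0.13 ± 0.15.

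Polg, the DNA polymerase that copies the mitochondrial genome, was at 41.7, 36.5 and 36.98 CPM in the wild-type mice, 45.0, 44.9 and 44.4 in the Ms4a6c knockout mice and 41.6, 40.0 and 41.1 in the cluster knockout mice. The Ms4a6c knockout mice lay above all others, with a log2 fold change of 0.22 ± 0.065 against wild type (edgeR, adjusted p = 0.24). It was called without the 2 gland-rich libraries, a setting chosen after the data were examined.

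Among genes that mature mitochondrial RNA, Lrpprc, which with Slirp keeps the messenger RNAs stable, was at 34.7, 35.4 and 37.5 CPM in the wild-type mice and 59.3, 41.1 and 40.4 in the Ms4a6c knockout mice. Its log2 fold change was 0.39 ± 0.13 (edgeR, adjusted p = 0.32), and knockout mouse 1 stood highest. Slirp had 0.0057 ± 0.095. The RNase genes Elac2 and Prorp, which cut at the ends of transfer RNAs, had 0.0086 ± 0.11 and 0.058 ± 0.12, and Trmt10c, their partner, -0.15 ± 0.15. Mtpap, the poly-A polymerase, had 0.019 ± 0.096, and Pnpt1 and Supv3l1, which degrade mitochondrial RNA, -0.081 ± 0.084 and -0.0064 ± 0.092. In the cluster knockout against wild type these 8 genes had log2 fold changes between -0.10 and 0.10.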

How the data were processed

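Olfactory epithelium from 9 mice had been sequenced. The authors made directional poly-A libraries, sequenced paired-end reads, aligned them with STAR 2.6.1, quantified them with RSEM 1.3.1 on GENCODE M25 (mm10, GRCm38) and deposited expected counts per gene, without normalization. RSEM divides reads that match several genes. Expected counts were rounded to whole numbers for tests. Groups and replicate numbers came from the labels. Separate mice are the replicates.

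Genes with at least 10 counts over 9 mice (23225) were TMM-scaled and tested in edgeR 4.0.16 (quasi-likelihood F test, 1 model of all mice, R 4.3.3), with Benjamini-Hochberg adjustment over all tested genes. The error of a log2 fold change was derived from its F value. DESeq2 1.42.0 was an alternative. Shares were compared with 2-sided exact permutation tests over mice. Nuclear copies and gene lengths came from GENCODE M21 transcripts (GRCm38), compared with blastn 2.17.0. Scripts were tested on simulated data.

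All 37 genes are accounted for. The 13 messenger RNAs and 2 ribosomal RNAs, transfer RNAs above 3 counts in every mouse (none), called genes of the nuclear lists and 14 fixed genes of mitochondrial RNA biology were to be named. Copies with 10 or more counts in some mouse are named too, and those left unnamed had fewer. Uqcrh and Cox6a2 were named after their values were seen, as were other single genes outside this rule. Members and lists were chosen with earlier results of these data known. A correlation over all 9 mice had been planned and was replaced by one over 7, since the mice fall into clusters. Alternatives comprised other scalings, filters, tools, a gland covariate, the replicate block and leaving out each mouse. Leaving out both gland-rich libraries, and gland genes from the library size or denominator, was added after the data were examined.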

Additional observations from a re-analysis of the deposited data

How the results depend on the processing

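The count of 0 mitochondrial genes called held under every alternative run: DESeq2, DESeq2 size factors, nuclear counts, mitochondrial counts or counts outside the gland list as library size, edgeR's default filter, no filter, the 2 genotypes alone, a gland covariate, nuclear copies summed, an adjusted p of 0.01, and leaving out each mouse or both gland-rich mice. Their lowest adjusted p for a messenger or ribosomal RNA was 0.12. Of 1278 recomputed values 126 changed sign, all without a call on either side. Leaving out both gland-rich libraries gave 1 call, Polg, in the Ms4a6c knockout against wild type, and DESeq2 gave 1, Uqcrh, between the knockouts. The relation of the mitochondrial share to the mature neuron list centred on genotype had r = -0.87 (permutation p = 0.012, adjusted p = 0.049, 7 mice) against -0.51 uncentred. The uncentred r was 0.0025 without cluster knockout mice 1 and 3. Centring leaves fewer free values than mice, which that permutation does not count, so no relation is drawn from it. The cause was not tested. Over all genes, the 6, 101 and 103 calls in the cluster knockout against wild type, the Ms4a6c knockout against wild type and between the knockouts became 18, 345 and 271 in DESeq2, 8, 350 and 147 without both gland-rich libraries, 8, 182 and 155 with no filter, 7, 191 and 156 with the gland covariate and 6, 61 and 66 with the mitochondrial total as library size.

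The labels tie no number to a litter, batch or day, and same-numbered mice did not deviate together (mean correlation -0.37, -0.03 and 0.0035 for the cluster knockout with wild type, the Ms4a6c knockout with wild type and the 2 knockouts), so the numbers were not used as pairs. The gland-rich libraries carry different numbers, so these correlations do not show whether a litter or day was shared. With the replicate block, 0 mitochondrial and 0 nuclear OXPHOS or mitochondrial RNA genes were called, and calls over all genes became 2, 71 and 75 in the same order. The shares paired by number gave exact permutation p = 0.75, 1 and 0.5, where 3 pairs allow no p below 0.25.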

Other observations

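A pair of nuclear genes of mitochondrial proteins outside the fixed lists, chosen after their values were seen, were called in the Ms4a6c knockout mice. They were among the 101 genes (0.435% of 23225 tested) called against wild type, and the other called genes are not described here. No mitochondrial response is read from this pair, and the cause of the calls was not tested. Uqcc1, an assembly factor of complex III that acts on the making of cytochrome b, the mt-Cytb protein, was at 33.0, 33.5 and 32.2 TMM-scaled CPM in the wild-type mice, 26.5, 24.9 and 24.98 in the Ms4a6c knockout mice and 31.7, 33.9 and 34.2 in the cluster knockout mice. It fell by 0.37 ± 0.063 (SE) on the log2 scale against wild type (edgeR, adjusted p = 0.038). Sqor, the mitochondrial enzyme that oxidizes sulfide and passes electrons to ubiquinone, was at 21.5, 20.9 and 19.4 CPM in the wild-type mice, 35.7, 34.1 and 33.3 in the Ms4a6c knockout mice and 21.1, 21.2 and 21.3 in the cluster knockout mice. It rose by 0.74 ± 0.067 on the log2 scale against wild type (adjusted p = 0.00054). In both genes the cluster knockout differed from the Ms4a6c knockout (adjusted p = 0.030 for Uqcc1 and 0.00073 for Sqor) and not measurably from wild type (adjusted p = 0.999 for Sqor and 0.9995 for Uqcc1).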
